A study of Mus musculus with 24 samples.

Results

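The genes described here encode 10 proteins of insulin receptor signalling: the receptor (Insr), its docking proteins (Irs1 and Irs2), the phosphoinositide 3-kinase subunit Pik3r1, the kinases Akt1 and Akt2, the transcription factor Foxo3, and the negative or modulating proteins Grb14, Ptpn1 and Trib1. They were chosen by name: every non-control probe whose gene name on the array was 1 of these symbols was taken. This gave 24 probes, of which 22 were measurable, and all 10 genes were among the 23966 genes tested. Livers were taken from 24 male mice of 8 weeks, all wild-type C57Bl/6J on Safe 04 chow, with 1 array per mouse and 6 mice per group. One group was fasted for 24 hours. The other groups ate chow freely for the same 24 hours and drank tap water with 20% glucose, tap water with 20% fructose, or plain tap water. All mice were killed at ZT16, which is 16 hours after lights on and falls in the dark, active phase.

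Insulin binding turns on the tyrosine kinase of its receptor, which phosphorylates IRS1 and IRS2. These docking proteins recruit phosphoinositide 3-kinase, whose lipid product activates AKT, and AKT phosphorylates FOXO transcription factors and keeps them out of the nucleus. In liver this chain holds down glucose production and turns on lipid synthesis after a meal, and in fasting, when insulin is low, FOXO proteins enter the nucleus and activate their target genes, Irs2 among them. The arrays measured transcripts only, and they hold no measurement of protein amount or phosphorylation.

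A level below is the log2 of a probe's background-subtracted signal minus the 75th percentile of all non-control probes on that array, so that 0 is the signal of a probe at that percentile. A gene is represented by its brightest probe. Levels of different probes are not comparable with each other, because each probe binds with its own strength. Changes are differences of group means from limma, fitted over all genes, with the standard error (SE) and a p-value adjusted by Benjamini-Hochberg over all 23966 genes. Values for a gene's other probes come from a like fit over all 36230 kept probes, with p adjusted over those. A gene or probe with an adjusted p under 0.05 is said to have risen or fallen. The number of arrays limits the precision, and because whole liver was used, fewer cells of a type and less RNA per cell cannot be told apart.

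With 24 hours of fasting, 9 of the 10 genes changed against fed mice on water, 5 upward and 4 downward. Insr, Irs1, Irs2, Grb14 and Trib1 rose, and Pik3r1, Akt1, Akt2 and Ptpn1 fell. Fasting changed a large share of the whole transcriptome: 42.6% of all genes tested were called, 21.7% higher and 20.9% lower. The median log2 fold change was 0.33 over the 10 genes and 0.02 over all genes. For Insr, Irs2, Pik3r1 and Akt2 the fasted mice did not overlap the water mice, 4 of 10 genes, and 24.3% of all genes had that property. With either sugar in the drinking water none of the 10 genes passed the test.

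**Figure D1:**
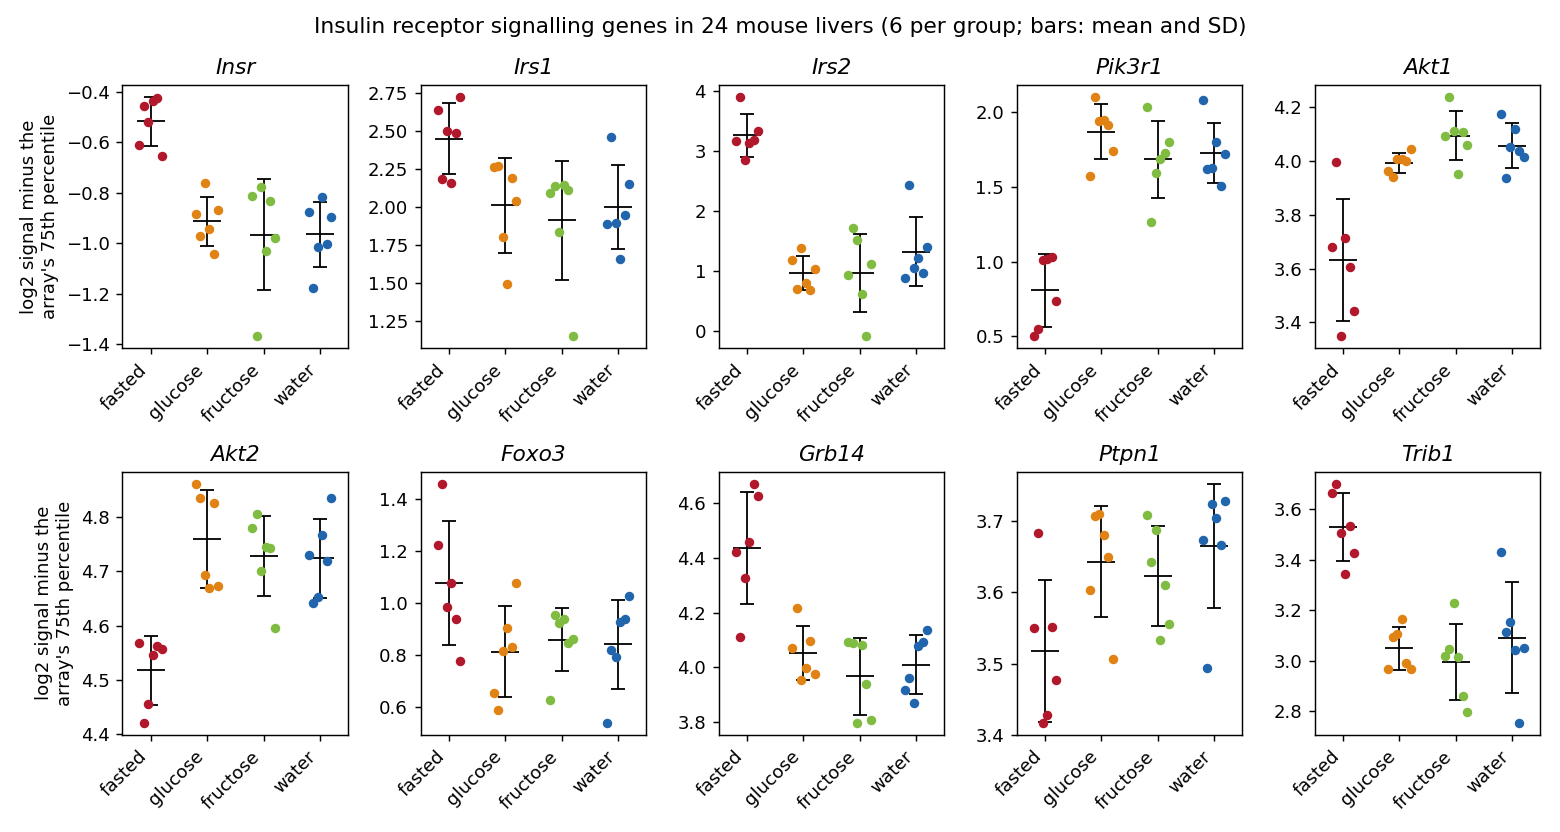
Level of each of the 10 genes in every mouse (points; y axis, log2 signal minus the array's 75th percentile, with a separate scale for each gene; x axis, fasted, glucose, fructose and water groups), with the mean and SD of 6 mice per group as bars. The fasted mice stand apart from all 3 fed groups for Irs2 (2.84 to 3.90, against at most 2.42 in any fed mouse), Insr, Pik3r1 and Akt2, and the 3 fed groups overlap for every gene.

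The receptor came first in the chain and moved by a small amount. The Insr level, read by a probe at chr8:3155472-3155531 (mm9, minus strand), was -0.66 at the lowest, -0.49 at the median and -0.42 at the highest in fasted mice, against -1.18, -0.95 and -0.82 in water mice. Every fasted mouse was above every water mouse. Insr rose by 0.45 on the log2 scale (SE 0.085, adjusted p = 0.000153), a ratio of 1.36. The other Insr probe, at chr8:3159473-3159532, also rose, by 0.29 (SE 0.094, adjusted p = 0.0144).

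Irs2, which links the receptor to phosphoinositide 3-kinase and carries much of the insulin signal in hepatocytes, changed more than any other of the 10 genes. Its level in fasted mice was 2.84 at the lowest, 3.17 at the median and 3.90 at the highest, against 0.89, 1.12 and 2.42 in water mice. The lowest fasted mouse lay above the highest water mouse, and a single water mouse stood well above the others of its group. Irs2 rose by 1.94 on the log2 scale (SE 0.27, adjusted p = 3.23e-06), which is 3.83-fold. Without that water mouse, number 2 of its group, the rise was 2.16 (adjusted p = 2.54e-07).

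Irs1, the other hepatic docking protein, rose less and less securely. Its level was 2.16, 2.49 and 2.73 at the lowest, median and highest in fasted mice, against 1.66, 1.92 and 2.46 in water mice, so the groups overlapped. The rise was 0.45 (SE 0.17, adjusted p = 0.0383), read by a single probe at chr1:82229692-82229751 (mm9, minus strand). Leaving out any of 8 single arrays (fasted mice 1, 3, 5 and 6, and water mice 1, 3, 4 and 5) ended the call, with adjusted p up to 0.0949. Over the 12 arrays left out in turn the rise ran from 0.38 to 0.54.

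The promoters of the IRS genes are shown because their mRNAs both rose and because FOXO proteins are known to bind the Irs2 promoter. Both are the 250 bases before the start site, 5′ to 3′ on the gene's strand, from RefSeq (GRCm38.p6), with an E-box (CACGTG) and a copy of CAAAACA, or its complement TGTTTTG, in capitals. CAAAACA is the core of the insulin response element described in the human IGFBP1 promoter, a sequence that forkhead proteins bind. Irs2 lies at chr8:11008930-11009179 and Irs1 at chr1:82291440-82291689, both on the minus strand.
Irs2 promoter: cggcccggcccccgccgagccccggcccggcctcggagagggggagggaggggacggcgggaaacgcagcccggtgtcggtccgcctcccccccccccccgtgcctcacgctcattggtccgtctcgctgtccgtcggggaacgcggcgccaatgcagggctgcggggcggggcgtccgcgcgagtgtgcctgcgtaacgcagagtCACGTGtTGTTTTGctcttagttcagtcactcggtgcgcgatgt
Irs1 promoter: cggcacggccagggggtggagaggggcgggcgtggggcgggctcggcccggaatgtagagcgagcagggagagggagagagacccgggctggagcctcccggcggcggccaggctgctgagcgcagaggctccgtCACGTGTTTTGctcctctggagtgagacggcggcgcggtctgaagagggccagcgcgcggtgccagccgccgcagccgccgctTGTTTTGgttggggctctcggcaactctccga

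In Irs2 the E-box began at position -44 from the start site and TGTTTTG at -37. In Irs1 the E-box began at -115 and overlapped the complement of CAAAACA at -111, with another copy at -32. Promoters from the same RefSeq table were found for 8 of the 10 genes, 13 promoters in all, each running from 250 bases before to 50 after the start. Insr and Trib1 had no entry. Both strands were searched for these motifs and for the forkhead motif GTAAACA. The cAMP response element TGACGTCA was searched too, as was the sterol response element TCACCCCAC. Besides the IRS matches there was a single match, GTAAACA on the minus strand of an Akt1 promoter at -161. Among 32851 mouse promoters of the same length, CAAAACA was found in 6.28%, CACGTG in 7.15%, GTAAACA in 3.65%, TGACGTCA in 1.79% and TCACCCCAC in 0.551%. CAAAACA and CACGTG occurred together in 0.408% of promoters. They overlapped or had at most 10 bases between them in 18 promoters (0.0548%), a pairing counted after the IRS promoters had been seen. A match of letters is a description and not a binding site.

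The step after the docking proteins went the other way. Pik3r1 encodes p85 alpha, the regulatory subunit that holds the catalytic subunit of phosphoinositide 3-kinase and brings it to the IRS proteins. Its level was 0.50, 0.87 and 1.03 at the lowest, median and highest in fasted mice, against 1.51, 1.67 and 2.08 in water mice. No fasted mouse reached the lowest water mouse. Pik3r1 fell by 0.92 on the log2 scale (SE 0.13, adjusted p = 2.73e-06), to 0.529 times the signal in water mice.

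Irs2 and Pik3r1 had the largest changes among the 10 genes, and each was read by a single probe. The sequences of both probes are shown, 5′ to 3′ as the array files give them, because no other probe on the array checks these values. The Irs2 probe lies at chr8:11004490-11004549. The Pik3r1 probe is 60 bases long but spans chr13:102459406-102460448, so it does not lie in a single unbroken stretch of the genome. Both are on the minus strand of mm9.
Irs2 probe: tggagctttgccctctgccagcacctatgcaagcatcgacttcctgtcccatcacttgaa
Pik3r1 probe: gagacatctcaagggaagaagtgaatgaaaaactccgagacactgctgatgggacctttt

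The AKT kinases, which carry the signal onward from phosphoinositide 3-kinase, fell by less. The Akt1 level was 3.35, 3.65 and 4.00 at the lowest, median and highest in fasted mice, against 3.94, 4.05 and 4.18 in water mice. A single fasted mouse lay within the range of the water mice. Akt1 fell by 0.43 (SE 0.078, adjusted p = 9.88e-05) on its brightest probe at chr12:113892079-113892138 (mm9, minus strand). A dimmer probe fell by 0.52 (SE 0.15, adjusted p = 0.00629), and the remaining probe, designed on another transcript at chr12:113894094-113894153, differed by 0.02 (SE 0.091, adjusted p = 0.894).

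Akt2, the main AKT kinase of insulin action in liver, had a level of 4.42, 4.55 and 4.57 at the lowest, median and highest in fasted mice, against 4.64, 4.73 and 4.84 in water mice. The groups did not overlap, although the fall was only 0.21 (SE 0.051, adjusted p = 0.00212), to 0.867 times the signal in water mice. Its brightest probe lies at chr7:28424405-28424464 (mm9, plus strand). The other Akt2 probes differed by -0.10 (adjusted p = 0.144) and -0.07 (adjusted p = 0.417) and were not called.

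Foxo3, a FOXO transcription factor that AKT restrains, was the 1 gene of the 10 that was not called. Its level was 0.78, 1.03 and 1.46 at the lowest, median and highest in fasted mice, against 0.54, 0.87 and 1.03 in water mice, and the groups overlapped. The difference was 0.23 (SE 0.10, adjusted p = 0.0745) on the brightest probe, at chr10:41901997-41902056 (mm9, minus strand). Leaving out fasted mouse 6 or water mouse 6 brought the adjusted p under 0.05, and over the 12 arrays left out in turn the difference ran from 0.16 to 0.29.

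The 3 Foxo3 probes disagreed. The probe at chr10:41994961-41995020 rose by 1.03 (SE 0.21, adjusted p = 0.000328), with a mean level of -1.57 in fasted mice and -2.61 in water mice. The probe at chr10:41916349-41916408 differed by 0.03 (SE 0.16, adjusted p = 0.911). On the mean of all 3 probes the difference was 0.43 (adjusted p = 0.0144), so the call depends on how the probes are combined. The sequences of the disagreeing probes are given so that each can be placed on the transcript; both are on the minus strand of mm9.
Foxo3 probe that rose: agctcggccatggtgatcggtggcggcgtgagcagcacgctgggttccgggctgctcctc
Foxo3 probe not called: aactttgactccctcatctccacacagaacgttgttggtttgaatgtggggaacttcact

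**Figure D2:**
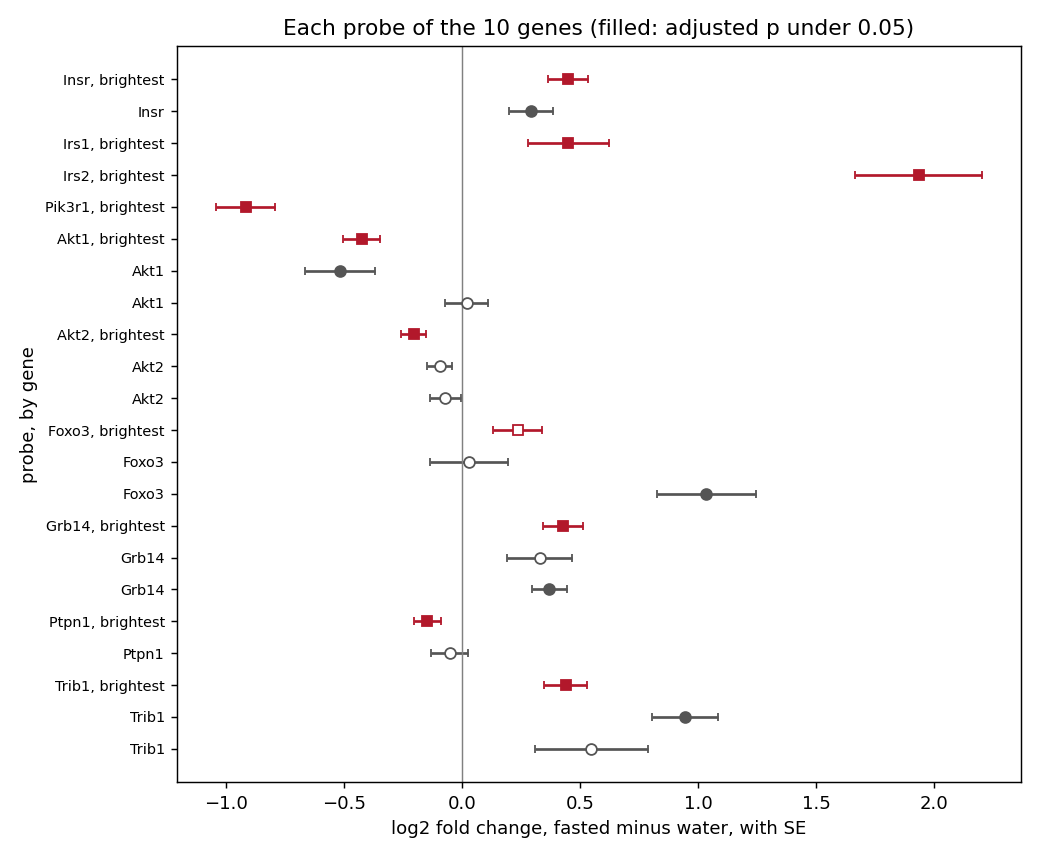
Log2 fold change (fasted minus water, x axis) with its SE for each of the 22 measurable probes of the 10 genes (y axis), squares for the brightest probe of a gene and circles for its other probes, filled where the adjusted p is under 0.05. The Foxo3 probes run from 0.03 to 1.03 and the Akt1 probes from -0.52 to 0.02, whereas all 3 Grb14 probes lie between 0.33 and 0.43.

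Genes for proteins that dampen the signal moved in both directions. GRB14, an adaptor that binds the active receptor and inhibits its kinase, had a level of 4.11, 4.44 and 4.67 at the lowest, median and highest in fasted mice, against 3.87, 4.02 and 4.14 in water mice. A single fasted mouse lay within the range of the water mice. Grb14 rose by 0.43 (SE 0.084, adjusted p = 0.000241) on its brightest probe at chr2:64750720-64750779 (mm9, minus strand). Its other measurable probes differed by 0.37 (adjusted p = 0.000251) and 0.33 (adjusted p = 0.0618), and the last was not well above background on any array.

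Ptpn1 encodes PTP1B, the phosphatase that removes phosphate from the insulin receptor. Its level was 3.42, 3.51 and 3.68 at the lowest, median and highest in fasted mice, against 3.49, 3.69 and 3.73 in water mice, so the groups overlapped widely. The fall was 0.15 (SE 0.055, adjusted p = 0.0348), to 0.903 times the signal in water mice, on a probe at chr2:167802296-167802355 (mm9, plus strand). The other measurable probe differed by -0.05 (adjusted p = 0.636). Leaving out any of 8 single arrays (fasted mice 3, 4 and 6, and water mice 1, 3, 4, 5 and 6) ended the call, with adjusted p up to 0.0829, and the mean of both probes was not called (-0.10, adjusted p = 0.237).

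Trib1 encodes a pseudokinase that brings a ubiquitin ligase to the transcription factor C/EBP alpha and is known in liver for its effect on lipid synthesis. Its level was 3.35, 3.52 and 3.70 at the lowest, median and highest in fasted mice, against 2.76, 3.08 and 3.43 in water mice. The groups overlapped only at the highest water mouse. Trib1 rose by 0.44 (SE 0.090, adjusted p = 0.000361) on the probe at chr15:59487848-59487907 (mm9, plus strand). A dimmer probe at chr15:59484641-59484700 rose by 0.95 (SE 0.14, adjusted p = 8.35e-06). The remaining probe with this gene's name lies on the opposite strand and differed by 0.55 (adjusted p = 0.0709).

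The arrays were run on 3 slides, each with 2 mice of every group, and the fasted mice differed from the water mice in the same direction on all 3 slides for all 10 genes. The Irs2 rise was 1.26, 2.36 and 2.20 on slides 1, 2 and 3, and the highest water mouse was on slide 1. The Pik3r1 difference was -0.61, -0.82 and -1.33, and the Insr difference was 0.62, 0.51 and 0.21. With 2 mice of each group on a slide, 9 of these 30 values passed the test, 2, 2 and 5 on slides 1, 2 and 3. Of the 23966 genes tested, 4196, 4125 and 4128 were called on the same slides.

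Glucose in the drinking water asked whether a sugar load on top of free feeding shifts the same genes. None of the 10 passed the test against water by limma, and none had an unadjusted p under 0.05 on its brightest probe. Of all genes tested 0.83% were called, and 2743 had an unadjusted p under 0.05. The differences of the 10 genes ran in size from 0.010 to 0.36 on the log2 scale, with 95% intervals of 0.11 to 0.56 on either side. The largest was in Irs2, whose level was 0.69, 0.91 and 1.39 at the lowest, median and highest in glucose mice, against 0.89, 1.12 and 2.42 in water mice. The difference was -0.36 (95% interval -0.92 to 0.20, adjusted p = 0.682), and the groups overlapped. Without water mouse 2 it was -0.14 (adjusted p = 0.908). Pik3r1 differed by 0.14 (95% interval -0.12 to 0.41, adjusted p = 0.745). For the brightest Akt2 probe the interval was narrow, from -0.07 to 0.14 around a difference of 0.04. The other Akt2 probes differed in the opposite direction, by -0.10 (adjusted p = 0.517) and -0.15 (adjusted p = 0.409), and were not called.

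Fructose gave a like picture. None of the 10 genes passed the test against water by limma, none had an unadjusted p under 0.05, and 0.88% of all genes were called, with 3809 at an unadjusted p under 0.05. The Irs2 level was -0.09, 1.01 and 1.71 at the lowest, median and highest in fructose mice, against 0.89, 1.12 and 2.42 in water mice. The difference was -0.35 (95% interval -0.91 to 0.20, adjusted p = 0.568), and without water mouse 2 it was -0.13 (adjusted p = 0.854). Fructose mice were the most variable group for this gene, with an SD of 0.65, against 0.57 in water mice. The Insr difference was -0.0018 (95% interval -0.18 to 0.17) and the Trib1 difference -0.10 (95% interval -0.28 to 0.09).

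Between the sugars, with fructose set over glucose, no gene of the 10 and 0% of all genes passed the test by limma. An unadjusted p under 0.05 was found for 1869 genes, and for none of the 10 on its brightest probe. Among the brightest probes, that of Pik3r1 had the largest difference. Pik3r1 levels were 1.26, 1.71 and 2.03 at the lowest, median and highest in fructose mice, against 1.58, 1.93 and 2.10 in glucose mice. The Pik3r1 difference was -0.19 (95% interval -0.45 to 0.07, adjusted p = 0.756). Irs2 differed by 0.0042 (95% interval -0.55 to 0.56). Some dimmer probes differed by more than the brightest probe of their gene, and none was called. Examples are probes of Foxo3 (0.32, adjusted p = 0.728), Trib1 (-0.31, adjusted p = 0.605) and Akt2 (0.12, adjusted p = 0.591).

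**Figure D3:**
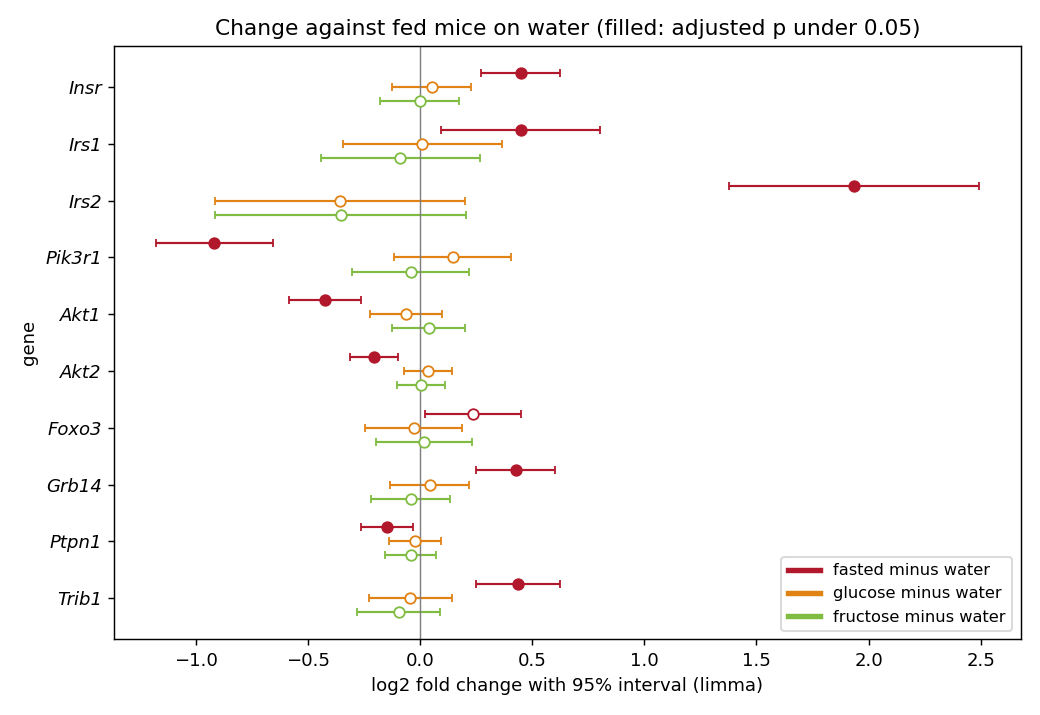
Log2 fold change against fed mice on water (x axis) with its 95% interval from limma for each of the 10 genes (y axis), in fasted, glucose and fructose mice, filled where the adjusted p is under 0.05. All 20 sugar values are open and their intervals include 0, and 9 of the 10 fasting values are filled.

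Fasted mice can also be set against the sugar groups, with the same 6 fasted arrays in each comparison. Against glucose mice 6 of the 10 genes were higher and 3 lower (of all genes 44.6% were called, 22.6% higher and 21.9% lower). Against fructose mice 5 were higher and 3 lower (of all genes 45.3% were called, 23.4% higher and 21.9% lower). Irs2 was 2.29 higher against glucose (adjusted p = 2.62e-07) and 2.29 higher against fructose (adjusted p = 2.85e-07). The log2 fold change of Pik3r1 was -1.06 against glucose (adjusted p = 3.10e-07) and -0.88 against fructose (adjusted p = 4.89e-06). Groups did not overlap in 5 of 10 genes against glucose (25.8% of all genes), and in 7 of 10 against fructose (23.6% of all genes).

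Foxo3 passed the test against glucose (0.26, adjusted p = 0.0429) and not against fructose (0.22, adjusted p = 0.0941). The call against glucose was lost without any of 7 single arrays (fasted mice 1, 2 and 4, and glucose mice 1, 2, 3 and 5), with adjusted p up to 0.124. Irs1 likewise lost its call against glucose without any of 7 arrays (fasted mice 1, 3, 5 and 6, and glucose mice 3, 4 and 6), with adjusted p up to 0.117. Ptpn1 was called against neither sugar group (-0.13 and -0.11, adjusted p = 0.0712 and 0.129). It gained a call in 6 of 27 alternatives against glucose, without fasted mouse 2 or glucose mouse 6 among them, and in 4 of 27 against fructose, without fasted mouse 2 among them. Foxo3 gained a call against fructose in 3 of 27, without fasted mouse 6 among them. In the order of group means the fasted group was at an end for all 10 genes, and no neighbouring fed groups differed for any of them, with adjusted p of 0.568 or more.

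Genes of the wider pathway were taken from lists of names. In the list of the remaining insulin cascade, 7 of 25 measured genes rose with fasting and 3 fell, with a median log2 fold change of 0.06. That is near the share among all genes, of which 21.7% rose and 20.9% fell. Pik3r3, another regulatory subunit of phosphoinositide 3-kinase, fell by 1.69 (SE 0.096, adjusted p = 4.25e-12), and like Pik3r1 its fasted mice lay below every water mouse. Pik3r2, also a regulatory subunit, was not called (0.07, adjusted p = 0.505). The catalytic subunits Pik3ca and Pik3cb differed by -0.18 (adjusted p = 0.462) and 0.06 (adjusted p = 0.587). Pik3r2, Pik3ca and Pik3cb were chosen after their values were seen. Pdpk1, the kinase that phosphorylates AKT, rose by 0.62 (SE 0.071, adjusted p = 2.37e-07). Foxo1, the main FOXO protein of insulin action in liver, rose by 0.45 (SE 0.11, adjusted p = 0.00181). Sh2b2, an adaptor of the receptor, fell by 0.65 (adjusted p = 0.0154).

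Of 25 other genes that restrain insulin signalling, 11 rose and 6 fell, with a median of 0.17, beside 21.7% and 20.9% of all genes. Trib3, a pseudokinase related to Trib1 that binds AKT, rose by 2.05 (SE 0.21, adjusted p = 5.85e-08). Ptprf, a receptor phosphatase, fell by 1.23 (SE 0.060, adjusted p = 4.27e-13). Grb10, the close relative of Grb14, fell by 1.73 on its brightest probe (adjusted p = 4.44e-05), but its other probes differed by -0.20 (adjusted p = 0.571) and 0.01 (adjusted p = 0.990). Pik3ip1, which inhibits phosphoinositide 3-kinase, rose by 1.17 (adjusted p = 1.27e-06), and its other probe differed by 0.12 (adjusted p = 0.714).

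In the branch to mTOR, the kinase that couples insulin and amino acids to growth, 11 of 20 genes rose and 6 fell, with a median of 0.25, beside 21.7% and 20.9% of all genes. Genes for inhibitors of mTOR moved both ways. Ddit4 rose by 2.16 (adjusted p = 0.000425), Sesn2 by 0.95 (adjusted p = 6.98e-09) and Sesn1 by 0.55 (adjusted p = 0.00401). Sesn3 fell by 0.50 (adjusted p = 4.20e-05) and Deptor by 0.46 (adjusted p = 2.46e-06), both chosen after their values were seen. Ulk1, an autophagy kinase that mTOR restrains, rose by 0.77 (adjusted p = 4.85e-05). Ulk1 was also the 1 gene of this branch called in glucose mice against water (0.63, SE 0.13, adjusted p = 0.0227). The mean Ulk1 level was 5.85 in fasted, 5.71 in glucose and 5.08 in water mice. Fasted mice (5.71 to 6.15) overlapped glucose mice (5.39 to 6.08), and the Ulk1 test between these groups is not reported here.

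Genes that lie under insulin control had larger median changes than the signalling genes. Of 16 FOXO target genes, 11 rose and 2 fell with fasting, with a median of 1.07, beside 21.7% and 20.9% of all genes. Igfbp1, a secreted binder of insulin-like growth factors, rose by 3.68 (SE 0.47, adjusted p = 1.12e-06), Pdk4, which blocks pyruvate dehydrogenase, by 2.68 and Ppargc1a, a coactivator of glucose production genes, by 2.58. Ccng2, an unusual cyclin, rose by 2.08 (adjusted p = 1.48e-11). The genes of this list that fell were Gadd45a, by 2.00 (SE 0.33, adjusted p = 2.62e-05), and Sesn3, by 0.50, both chosen after their values were seen. Of 12 genes that insulin induces, 11 fell and 1 rose, with a median of -2.72, beside the same shares of all genes. Srebf1, the lipogenic transcription factor, fell by 3.85 (adjusted p = 3.19e-12) and Elovl6, a fatty acid elongase, by 3.70 (adjusted p = 1.10e-10). The gene that rose was Egr1, an early growth response factor (3.60, adjusted p = 1.60e-08; chosen after its value was seen).

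Against water, no gene of the cascade, restraining or FOXO target lists was called with either sugar, which does not show that none changed. In the insulin-induced list 3 of 12 genes rose with glucose and 1 with fructose, where 0.83% and 0.88% of all genes were called in either direction. Acaca, which makes malonyl-CoA for fatty acid synthesis, rose by 0.85 with glucose (SE 0.14, adjusted p = 0.00224) and by 0.74 with fructose (SE 0.14, adjusted p = 0.0131). Pklr, the liver pyruvate kinase, rose by 0.98 with glucose (SE 0.18, adjusted p = 0.00810). Pnpla3, a lipid droplet protein, rose by 2.52 with glucose (SE 0.54, adjusted p = 0.0246). These lists, like the 10 genes, were chosen with earlier results of these data known, so their counts are a description.

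**Figure D4:**
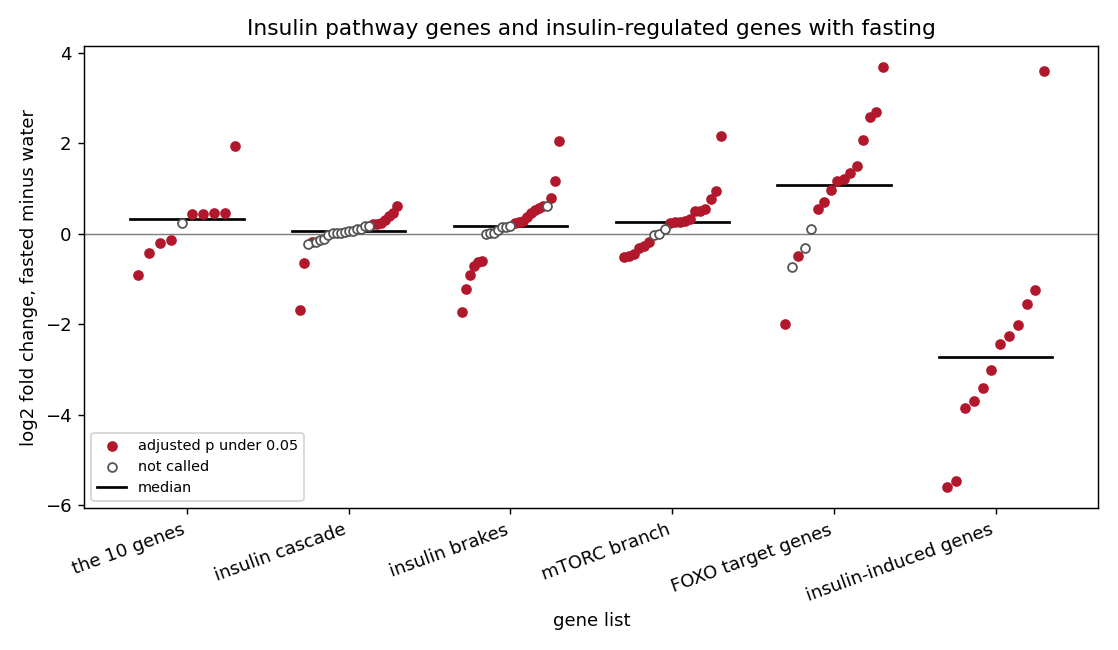
Log2 fold change (fasted minus water, y axis) of every measured gene in the 10 signalling genes and the 5 lists of the wider pathway (x axis), filled where the adjusted p is under 0.05, with the median of each list as a bar. The medians are 0.33 for the 10 genes, 0.06, 0.17 and 0.25 for the cascade, restraining (brakes) and mTOR lists, 1.07 for FOXO targets and -2.72 for insulin-induced genes.

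The genes whose levels followed each signalling gene most closely over the 24 arrays were found by Pearson correlation. The fasted mice stand apart in most of these patterns, so the values mainly describe a shared difference between fasted and fed mice. The closest to Pik3r1 was G2e3 (0.940), to Akt1 Rnf126 (0.926), to Grb14 Mrpl54 (0.931) and to Akt2 Edf1 (0.911). For Foxo3 the closest were Ypel2 (0.862) and its own relative Foxo1 (0.834). For Insr it was Ecpas (0.880), for Irs1 Fchsd2 (0.854), for Ptpn1 Cpb2 (0.863) and for Trib1 Dedd2 (0.882). The genes closest to Irs2 were Tdpoz2 (0.945) and Unc79 (0.935), but in glucose, fructose and water mice Tdpoz2 was well above background in only 3, 3 and 4 of 6, and Unc79 in 2, 2 and 0 of 6.

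Between 32516 and 36274 of 56605 probes were well above background on each array, and all 22 probes of the 10 genes were so on all 24 arrays. All 6 hepatocyte markers were measured. With fasting 2 rose against water and 1 fell, beside 21.7% and 20.9% of all genes. Against glucose 3 were higher and 1 lower (22.6% and 21.9% of all genes), and against fructose 5 and 0 (23.4% and 21.9%). Their summed signal relative to the 75th percentile ran from 4810 to 5350 in fasted mice, against 4460 to 5300 in water mice. It was 4360 to 4730 in glucose mice and 4080 to 4510 in fructose mice, both below every fasted mouse. Of the markers of other cells, 2 of 8 Kupffer and myeloid genes rose with fasting, 3 of 6 endothelial genes rose and 1 fell, 1 of 7 stellate genes rose and 3 fell, and 3 of 5 cholangiocyte genes fell, beside 21.7% of all genes that rose and 20.9% that fell. The summed cholangiocyte signal was 3.53 to 9.48 in fasted mice, against 7 to 11.3 in water mice, and that of 3 measured pancreas genes was 12.7 to 22.5 in fasted mice, against 33.4 to 39.9 in water mice. Of these 3 pancreas genes 1 fell and the others were not called, with a median log2 fold change of 0.13, so the sum rests on that gene. The part of other cell types in the changes of the 10 genes was not tested.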

How the data were processed

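Liver RNA of single mice was hybridised in 1 colour (Cy3) to Agilent mouse arrays. Per the file headers, the authors made the scanner files with Agilent Feature Extraction 10.10.1.1, and the deposited intensity of each spot is background-subtracted and not normalized between arrays. The authors also deposited a table of log2 values for 35967 probes, whose normalization is not given in the sources used here. It served as an alternative.

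Controls were dropped, as were 2196 spots flagged as outliers. The intensity was taken to log2, spots of a probe were averaged, and the array's 75th percentile over non-control probes was subtracted. A probe was kept if well above background on at least 6 of 24 arrays (36230 of 56605), and a gene was represented by its brightest kept probe (23966 genes, 7946 with several). Names came from GRCm38.p6 annotation, by accession for 15655 genes, and 6472 kept the array's name. Probe coordinates follow the array design (mm9), and exons or UTRs were not looked up. Group means were compared in 1 linear model of the 24 arrays by limma (version 3.58.1, functions lmFit and eBayes, under R 4.3.3), with Benjamini-Hochberg adjustment within each of 6 comparisons and a threshold of 0.05. Only the fit of the linear model was tested on simulated data, and the steps before it were not. Arrays give no counts, so their number limits the precision.

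The members and lists were chosen with earlier results of these data known. Named genes are the 10 members, up to 4 called genes with the largest change per list and comparison with water, and the closest genes by correlation; not every gene that this rule names is reported here. The alternatives were quantile normalization, normexp background correction, the deposited table, other filters on dim probes, the mean of all kept probes, slide or replicate number as a block, array weights, another variance model, a fit on the compared groups only, each slide alone and each array left out.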

Additional observations from a re-analysis of the deposited data

Results flagged for a closer look

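In each group of 6 mice, the gap between the most extreme mouse and its neighbour was divided by the range of the group and set against Dixon's 95% critical value for 6 samples. Of the 40 groups tested (10 genes in 4 groups), 4 passed, where chance gives about 1 in 20. Water mouse 2 was set apart for both Irs2 (ratio 0.672, level 2.42, the next water mouse at 1.39) and Ptpn1 (ratio 0.731, level 3.49, the lowest of its group). Among the 10 genes the same mouse was also the highest water mouse for Irs1 and the lowest for Insr, Akt1 and Akt2. Among genes that rose with fasting it was the highest for Ppargc1a, Trib3 and Sesn1 but ranked 3 of 6 for Igfbp1 and 5 of 6 for Ddit4. Among genes that fell it was the highest for Acaca, Pklr, Pik3r3 and Ptprf and the lowest for Grb10 and Pnpla3. Fructose mouse 6 was set apart for Irs1 (ratio 0.687, level 1.15), and fructose mouse 1 for Foxo3 (ratio 0.678, level 0.63). No mouse was left out of the values above.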

How the results depend on the processing

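Over 27 alternatives, no fasting call of the 10 genes against water turned direction. Of the 270 values, 40 lost a call and 5 gained one; Irs1 lost its call in 11, Ptpn1 in 16, and Foxo3 gained one in 5. Against glucose 38 lost and 6 gained a call, and against fructose 14 lost and 7 gained one; Ptpn1 gained 6 and 4 of these, quantile normalization among them in both, under which Foxo3 lost its call against glucose. An uncalled difference has no direction: its sign turned in 25 of 270 values for glucose, 37 for fructose and 27 between the sugars. With the mean of probes, Akt2 lost its call against glucose (-0.0561). The labels do not say that replicate numbers pair the mice. Deviations of same-numbered arrays correlated at 0.0334 on average (-0.173 to 0.22, 9 of 36 pairs above 0.1), and those of different numbers at -0.00671. Of 24 arrays, 8 matched their own number best. No chance level was set beside these values, and whether the numbers pair the mice was not tested. With the replicate block 8 of 10 genes were called against water, and Ptpn1 was not (-0.148, adjusted p = 0.0566). With 1 array left out in turn, 7 to 9 of the 10 genes were called for fasting against water, 7 to 9 against glucose and 8 to 9 against fructose, and 0 to 0 in the 3 comparisons between fed groups. Of all genes, 9528 to 10308, 9924 to 10751 and 10079 to 10854 were called in the same 3 fasting comparisons. For glucose against water the range was 107 to 157 of the full 199 (lowest without water mouse 4), for fructose against water 65 (without water mouse 4) to 413 (without fructose mouse 4) around 211, and between the sugars 0 to 3. Over all genes, fructose against water gave 545 calls with normexp, 367 in the deposited table, 79 with no filter, 400 with array weights, 350 with a trended robust variance and 74 with the compared groups only. Glucose against water gave 120 with no filter, 524 with array weights, 321 with the trended variance and 304 with the compared groups only. Between the sugars the counts were 4 with normexp, 1 with a strict filter, 1 with no filter, 2 with the mean of probes (also 2 without the opposite-strand Trib1 probe, an alternative chosen after seeing the data), 6 with array weights and 2 with the trended variance. Within slides 1, 2 and 3, with 2 mice per group, fasting called 4196, 4125 and 4128 genes against water, 5125, 4422 and 4147 against glucose and 4513, 4486 and 4561 against fructose. Of the 10 genes these held 2, 2 and 5 against water, 3, 2 and 5 against glucose and 2, 3 and 5 against fructose. For glucose or fructose against water each slide gave 0 calls by limma. These slides have fewer samples. Signal over background limited none of the 22 probes used.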
